A study of Mus musculus with 2 samples.

Results

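The 5 genes described here are the mouse Fc gamma receptors Fcgr1, Fcgr3, Fcgr4 and Fcgr2b and their signalling chain Fcer1g, taken by symbol from 32285 features in both single-cell RNA sequencing libraries of J558 allografts. Each library came from the J558 allograft of 1 BALB/c female mouse, picked by the study as a representative of its treatment group. The vehicle mouse received 0.5% methylcellulose by mouth and the other 60 mg/kg TAK-931 by mouth once daily, and both tumours were collected at day 6. J558 is a plasmacytoma line of BALB/c origin, grown under the skin from injected cells, and TAK-931 inhibits CDC7, a kinase that starts DNA replication. With 1 library from 1 mouse in each group no spread between animals could be measured, no test was made, and every interval below is a 95% interval of counting error only.

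Fc gamma receptors bind the constant part of IgG and let myeloid and NK cells respond to antibody-coated targets. Fcgr1 is the high-affinity receptor, Fcgr3 the low-affinity activating receptor shared by myeloid and NK cells, and Fcgr4 an activating receptor of monocytes, macrophages and neutrophils in mice. Each of these needs the chain encoded by Fcer1g, which carries the activating motif and brings the receptor to the surface. Fcgr2b is the inhibitory receptor, recruits the phosphatase SHIP1 and is the Fc gamma receptor of B cells. The balance of activating to inhibitory receptors is known to set the threshold at which a myeloid cell answers IgG.

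On mm10 (GRCm38, GENCODE vM21 annotation) Fcgr1 lies on chr3:96282909-96293969, minus strand. The others lie close together on chromosome 1, with Fcgr2b at chr1:170958617-170976547 (minus), Fcgr4 at chr1:171018920-171029761 (plus), Fcgr3 at chr1:171051174-171064935 (minus) and Fcer1g at chr1:171229572-171234365 (minus). Fcgr2b, Fcgr3 and Fcgr4 are paralogs, and Fcgr2b and Fcgr3 share near-identical stretches of exon. How the counting assigned any reads shared among these genes is uncertain. Counts came from the 3′ end of transcripts, with 1 tag a transcript, so gene length does not enter the levels, but capture can differ between genes.

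The 2 promoters below belong to the receptors with the largest ratios of TAK-931 to vehicle in inflammatory monocytes, and are shown because both are known interferon-responsive genes. They are taken from the 250 bases before the RefSeq transcript start on GRCm38.p6, 5′ to 3′ on the gene's strand, and end where the first annotated transcript starts. For Fcgr1 that is the RefSeq start, while the Fcgr4 sequence ends 6 bases short of it, where the GENCODE transcript starts. Capitals mark a GAS-type match (TTCNNNGAA), an ISRE-type match (GAAANNGAA) or a PU.1 core (GAGGAA or its reverse complement TTCCTC), all searched on both strands.
Fcgr1, chr3:96293970-96294219, minus strand: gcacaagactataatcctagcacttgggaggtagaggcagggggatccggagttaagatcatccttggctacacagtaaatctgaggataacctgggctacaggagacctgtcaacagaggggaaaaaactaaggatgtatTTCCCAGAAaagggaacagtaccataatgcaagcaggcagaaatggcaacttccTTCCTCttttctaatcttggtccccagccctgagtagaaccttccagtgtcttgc
Fcgr4, chr1:171018676-171018919, plus strand: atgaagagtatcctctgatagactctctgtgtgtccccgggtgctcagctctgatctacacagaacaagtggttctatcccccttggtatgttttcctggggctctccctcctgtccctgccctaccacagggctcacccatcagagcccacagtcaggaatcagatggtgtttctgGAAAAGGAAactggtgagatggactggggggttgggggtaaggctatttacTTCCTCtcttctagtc

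All 5 members had a promoter in the RefSeq table, with 6 entries in all because Fcgr3 has 2. The GAS-type letters began 109 bases before the end of the printed Fcgr1 sequence, and 7.04% of 32536 mouse promoters of this length hold them. The ISRE-type letters began 67 bases before the end of the printed Fcgr4 sequence, against 7.15% of promoters. A PU.1 core was present in Fcgr1, Fcgr3 and Fcgr4 and in 23.4% of promoters. None of these letters stood in the windows of Fcgr2b or Fcer1g. The 3 motifs do not overlap in these windows, and a match describes letters only.

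After the filter of over 2000 genes and under 15% mitochondrial UMIs (unique molecular identifiers, which count transcripts), 3441 of 4565 barcodes were kept from the vehicle and 3488 of 6558 from the TAK-931 library, with median depths of 40504 and 15097 UMIs. Cells were sorted by marker gates that use no member. The gates put 2810 vehicle and 93 TAK-931 cells in the J558 tumour gate and 225 and 1985 cells in the 4 myeloid gates. Markers of 2 lineages were carried by 37 vehicle and 290 TAK-931 cells (1.08% and 8.31%), which were kept apart as possible doublets, and 8 barcodes occurred in both libraries. Levels are CPM, the UMIs of the gene per 1000000 UMIs of the gate.

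Receptor transcripts sat mainly in myeloid cells. In the TAK-931 library the myeloid gates held between 86.8% (Fcer1g) and 89.0% (Fcgr1) of each member's UMIs. In the vehicle library they held 90.5% of Fcgr1, 91.5% of Fcgr3, 88.4% of Fcer1g, 80.2% of Fcgr4 and 68.1% of Fcgr2b, with most of the remaining Fcgr4 and Fcgr2b in the tumour gate. T cells, which should lack these receptors, give the background. In 653 TAK-931 T cells the 4 receptors lay between 5.48 and 9.98 CPM and Fcer1g at 79.8 CPM, and in 16 vehicle T cells between 0 and 2.71 CPM and at 29.8 CPM.

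**Figure D1:**
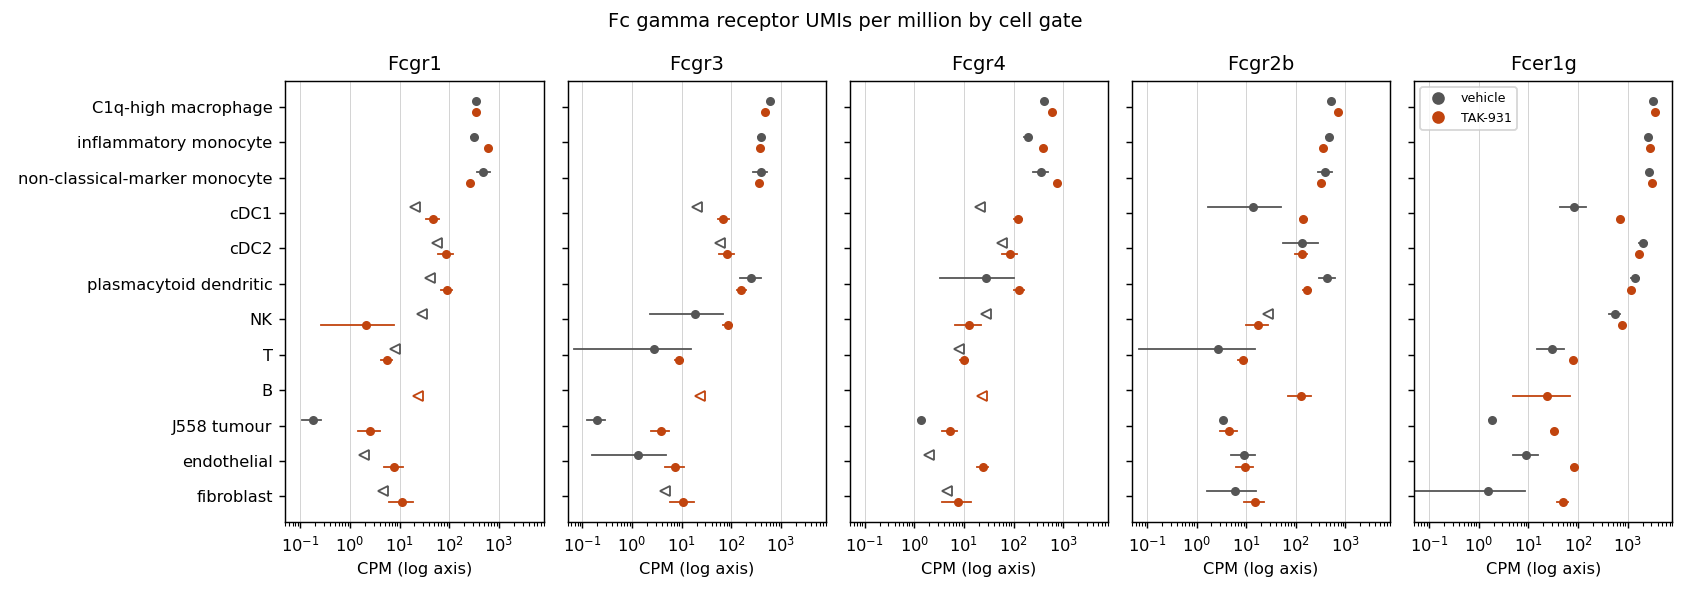
Level of each member (CPM, log axis) by marker gate in the vehicle (grey) and TAK-931 (red) library. Points are the summed UMIs of the gate as CPM, bars exact Poisson 95% intervals, and open triangles the level of 3 UMIs where none was counted. The 3 macrophage and monocyte gates lie between 192 and 755 CPM for the receptors, and T cells at 9.98 CPM or less.

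Over all kept cells every member was many times higher in the TAK-931 library, from 19.6-fold for Fcgr3 (11.7 to 229 CPM) to 34.1-fold for Fcgr4 (8.65 to 295 CPM). Of 15087 genes tested over all kept cells, 5114 were over 2-fold higher and 2915 over 2-fold lower. Fcgr1 went from 7.35 to 217 CPM, Fcgr2b from 14.6 to 314 CPM and Fcer1g from 68.2 to 1797 CPM. Most of the difference lay in the gate shares. When the difference was split into gate shares and levels within gates, the shares carried 75.1% for Fcgr4, 85.8% for Fcgr1, 87.5% for Fcgr2b, 89.1% for Fcer1g and 106% for Fcgr3, whose level within gates was on balance lower. In a whole-tissue value of these genes, more myeloid cells and more receptor RNA per cell could not be told apart.

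C1q-high macrophages were the largest myeloid gate, with 127 vehicle and 1159 TAK-931 cells. They carry the complement genes C1qa, C1qb and C1qc at a sum of 1000 CPM or more, as tissue macrophages do. In this gate Fcgr4 stood at 404 CPM in the vehicle and 606 CPM in the TAK-931 library, a log2 ratio of 0.58 (0.48 to 0.69). Fcgr2b stood at 521 and 711 CPM, a log2 ratio of 0.45 (0.36 to 0.54). Both receptors, the activating Fcgr4 and the inhibitory Fcgr2b, were thus higher with TAK-931.

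Fcgr3 went the other way, from 607 to 468 CPM, with a log2 ratio of -0.38 (-0.46 to -0.29). Fcgr1 did not differ beyond counting error at 342 and 350 CPM, with a log2 ratio of 0.03 (-0.08 to 0.15), and the Fcer1g chain stood at 3253 and 3535 CPM (0.12, 0.08 to 0.16). None of the 5 members passed 2-fold in either direction, beside 7.51% of 10007 genes tested that were over 2-fold higher and 8.51% that were over 2-fold lower. Scaling by the median ratio of all genes moved every value up relative to total UMIs, to 0.21 for Fcgr1 and 0.76 for Fcgr4, and left Fcgr3 lower, at -0.19. Without the 10 highest cells of each library Fcgr4 was at 0.95, and as a mean of cell CPM at 0.37.

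Inflammatory monocytes, marked by genes such as Ly6c2 and Ccr2 with C1q under 1000 CPM, held 76 vehicle and 636 TAK-931 cells. Here the high-affinity receptor Fcgr1 stood at 317 CPM in the vehicle and 606 CPM in the TAK-931 library, a log2 ratio of 0.94 (0.74 to 1.14). Fcgr4 stood at 192 and 390 CPM, a ratio of 1.02 (0.77 to 1.29). The inhibitory Fcgr2b was lower, at 464 and 361 CPM (-0.36, -0.53 to -0.19). Fcgr3 at 398 and 369 CPM did not differ beyond counting error (-0.11, -0.29 to 0.08), and Fcer1g stood at 2557 and 2870 CPM (0.17, 0.10 to 0.24).

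Of the 5 members, only Fcgr4 was past 2-fold in inflammatory monocytes, where 12.0% of 8052 genes tested were over 2-fold higher and 3.74% over 2-fold lower. Which member passed 2-fold depended on the setting. The log2 ratio of Fcgr4 ranged from 0.92 with the gene filter at 1000 to 1.56 without the 10 highest cells, and that of Fcgr1 from 0.86 with doubled marker limits to 1.29 without the 10 highest cells. Medians over cells went the same way, with Fcgr1 at 277 CPM in the vehicle and 540 CPM in the TAK-931 library, and Fcgr2b at 401 and 239 CPM. The median cell had Fcgr4 at 134 and 315 CPM. Without the 10 cells highest for Fcgr2b in each library, 10 of 76 and 10 of 636, its log2 ratio was -0.041. The summed level of the 7 monocyte markers was also higher, at 3136 and 5152 CPM, and its part in the receptor values was not tested.

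A further monocyte gate, C1q-low myeloid cells with at least 2 of the non-classical markers Ace, Treml4, Adgre4, Eno3 and Spn, held 11 vehicle and 162 TAK-931 cells. Its cells also carried inflammatory monocyte markers at a sum of 4298 CPM in the vehicle and 4664 CPM in the TAK-931 library, against 3136 and 5152 CPM in the inflammatory gate, and 10 of the 11 and 119 of the 162 met the marker rule of that gate as well. Ly6c2, which patrolling monocytes are known to have at a low level, stood at 604 and 783 CPM, against 453 and 1613 CPM in inflammatory monocytes. The data thus went against reading these cells as the patrolling subset, and they are called non-classical-marker monocytes after the rule. Fcgr4 stood at 358 CPM (35 UMIs) in the vehicle and 755 CPM in the TAK-931 library, a log2 ratio of 1.07 (0.59 to 1.60), and Fcgr1 at 491 CPM (48 UMIs) and 262 CPM (-0.91, -1.34 to -0.45). Fcgr3 at 389 and 352 CPM and Fcgr2b at 389 and 326 CPM did not differ beyond counting error, with intervals of -0.62 to 0.37 and -0.73 to 0.26. Fcgr4 was the only member past 2-fold, beside 19.7% of 4318 genes over 2-fold higher and 5.72% over 2-fold lower, and with halved marker limits its log2 ratio was 0.99. The 5 non-classical markers summed to 368 CPM in the vehicle and 1103 CPM in the TAK-931 cells, so the 2 sets of cells differ in the markers that chose them, and the part of this in the receptor ratios was not tested.

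**Figure D2:**
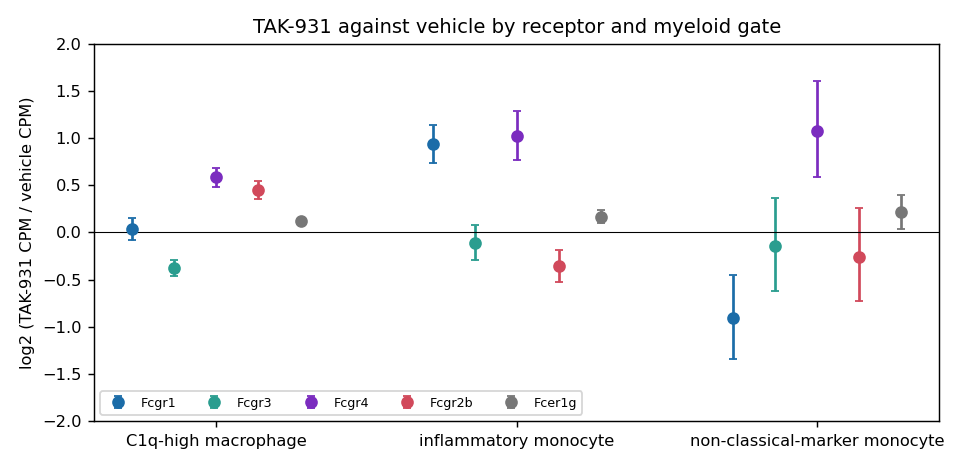
TAK-931 level over vehicle level (log2 of the CPM ratio) of each member in the 3 main myeloid gates, with exact 95% counting intervals. Fcgr4 lies above 0 in all 3 gates, Fcgr1 at 0.03, 0.94 and -0.91, and Fcgr2b at 0.45 in C1q-high macrophages and -0.36 in inflammatory monocytes.

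The ratios differed between gates by more than counting error. The log2 ratio of Fcgr1 in inflammatory monocytes exceeded that in C1q-high macrophages by 0.90 (0.67 to 1.13), and the one in non-classical-marker monocytes was 0.94 below it (difference -0.94, -1.39 to -0.50). For Fcgr2b the inflammatory monocyte value was lower by a log2 difference of -0.81 (-1.0 to -0.62). Fcgr4 (0.44, 0.16 to 0.71) and Fcgr3 (0.27, 0.07 to 0.47) differed less, and Fcer1g did not differ between these gates beyond counting error (0.05, -0.03 to 0.13). These intervals are approximate, from the counts alone.

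Within the TAK-931 library the receptors split by subset. Fcgr1 was higher in inflammatory monocytes than in C1q-high macrophages (606 against 350 CPM, log2 0.79, 0.74 to 0.84). Fcgr2b was lower (361 against 711 CPM, log2 -0.98, -1.03 to -0.92), as were Fcgr4 (-0.63, -0.69 to -0.58) and Fcgr3 (-0.34, -0.40 to -0.29). Non-classical-marker monocytes had Fcgr4 at 755 CPM, above the 606 CPM of macrophages (log2 0.32, 0.24 to 0.40), with Fcgr2b at 326 CPM. In the vehicle library inflammatory monocytes were also below C1q-high macrophages in Fcgr4 (192 against 404 CPM, log2 -1.07, -1.35 to -0.80) and Fcgr3 (398 against 607 CPM, -0.61, -0.81 to -0.42). They did not differ in Fcgr1 (317 against 342 CPM, log2 -0.11, -0.34 to 0.12) or Fcgr2b (464 against 521 CPM, -0.17, -0.36 to 0.02) beyond counting error. The 11 vehicle non-classical-marker monocytes were above the macrophages in Fcgr1 (491 against 342 CPM, log2 0.52, 0.07 to 0.95), the opposite of the TAK-931 order (262 against 350 CPM, -0.42, -0.56 to -0.28).

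The ratio of activating to inhibitory UMIs (Fcgr1, Fcgr3 and Fcgr4 summed over Fcgr2b) does not depend on library totals. In C1q-high macrophages it was 2.60 (2.41 to 2.79) in the vehicle and 2.00 (1.96 to 2.04) in the TAK-931 library, a log2 ratio of ratios of -0.38 (-0.48 to -0.27). In inflammatory monocytes it was 1.95 (1.70 to 2.25) and 3.78 (3.63 to 3.93), a log2 ratio of ratios of 0.95 (0.74 to 1.16). The 2 subsets therefore stood in opposite order in the libraries, with the macrophages at the higher ratio in the vehicle and the monocytes at the higher ratio with TAK-931. Summed over the 4 myeloid gates the ratio was 2.45 and 2.36 (log2 -0.05, -0.15 to 0.04), so the pooled value showed neither of these differences. More of the TAK-931 macrophages (68.1% against 29.9%) also met the inflammatory monocyte rule, and the part of this overlap in the opposite order was not tested.

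**Figure D3:**
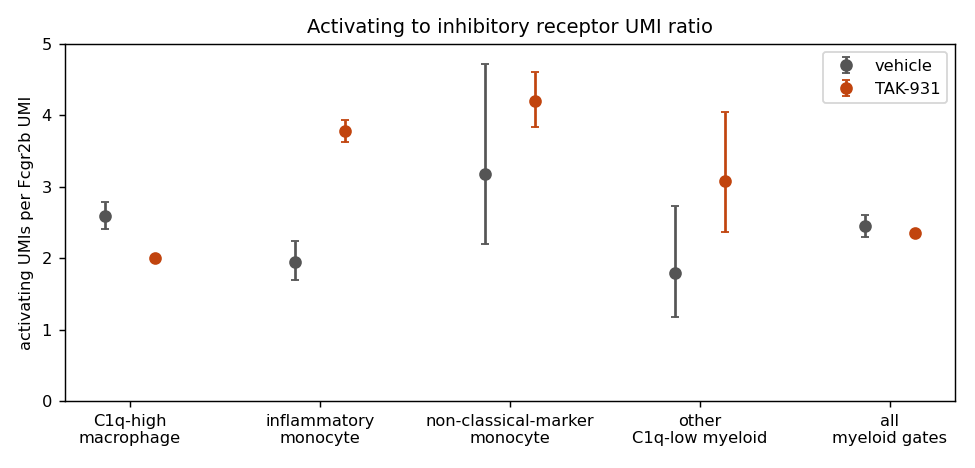
UMIs of Fcgr1, Fcgr3 and Fcgr4 per UMI of Fcgr2b in the vehicle (grey) and TAK-931 (red) library by myeloid gate, with exact binomial 95% intervals. C1q-high macrophages go from 2.60 to 2.00 and inflammatory monocytes from 1.95 to 3.78, while all myeloid gates together stay at 2.45 and 2.36.

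Each activating receptor was also set against Fcgr2b alone. In inflammatory monocytes the Fcgr1 to Fcgr2b ratio was 0.683 in the vehicle and 1.68 with TAK-931 (log2 1.30, 1.03 to 1.56) and that of Fcgr4 was 0.414 and 1.08 (1.38, 1.07 to 1.70), while Fcgr3 to Fcgr2b was 0.858 and 1.02 (0.25, with an interval that reaches 0). In C1q-high macrophages Fcgr3 to Fcgr2b was 1.16 and 0.658 (-0.82, -0.95 to -0.70) and Fcgr1 to Fcgr2b was 0.656 and 0.492 (-0.41, -0.56 to -0.27), and Fcgr4 to Fcgr2b was 0.775 and 0.851 (0.14, with an interval that reaches 0). In macrophages the lower Fcgr1 to Fcgr2b value went with a higher Fcgr2b level (log2 0.45), since Fcgr1 itself was at 0.03, while Fcgr3 was also lower in level (-0.38). Non-classical-marker monocytes had a ratio of 3.18 (2.20 to 4.71) in 11 vehicle cells and 4.20 (3.84 to 4.61) with TAK-931, not apart beyond counting error (log2 0.40, -0.18 to 0.95). The other C1q-low myeloid cells, 11 and 28 in number, had 1.79 and 3.08 (log2 0.78, 0.05 to 1.5).

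The direction in C1q-high macrophages depended on the number of genes in a barcode. Among those with 2000 to 3000, 3000 to 4000 and over 4000 genes the ratio was 2.34, 2.81 and 2.58 in the vehicle and 1.84, 1.89 and 2.24 with TAK-931. In the C1q-high barcodes with 500 to 2000 genes, left out by the filter, it was 1.79 (1.39 to 2.31) in 45 vehicle and 3.32 (2.89 to 3.81) in 230 TAK-931 barcodes, the opposite order. Fcgr2b was 687 CPM there in the vehicle and 381 CPM with TAK-931. In inflammatory monocytes the low-gene barcodes kept the direction, with 1.72 (1.35 to 2.19) in 36 and 3.98 (3.20 to 4.98) in 65 barcodes.

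The split ran along the C1q level itself in the TAK-931 library. Across 6 bins of summed C1q over the myeloid gates, the activating to inhibitory ratio was 3.99 (3.83 to 4.16) in the 649 cells under 250 CPM and 1.94 (1.90 to 1.98) in the 980 cells over 4000 CPM. In the bins between it was 3.30, 3.35, 2.78 and 2.49. Fcgr2b went from 337 CPM in the lowest bin through 392, 411, 475 and 574 CPM to 737 CPM in the highest, so this inhibitory receptor was higher in each bin than in the one before. Fcgr4 stood at 448 CPM in the lowest and 611 CPM in the highest bin, Fcgr3 at 364 and 486 CPM, and Fcgr1 at 533 and 331 CPM.

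The vehicle library had almost no cells between these ends. Of its 225 myeloid cells 4 lay between 500 and 2000 CPM of C1q, against 125 of 1985 with TAK-931, and the bins with at least 10 cells were the lowest (96 cells, ratio 2.05, 1.81 to 2.33) and the highest (120 cells, 2.61, 2.43 to 2.81). TAK-931 macrophages also carried more of the 7 inflammatory monocyte markers (1236 against 348 CPM) and less C1q (10834 against 13046 CPM). The part of these in the receptor values of the gate was not tested beyond the bins.

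**Figure D4:**
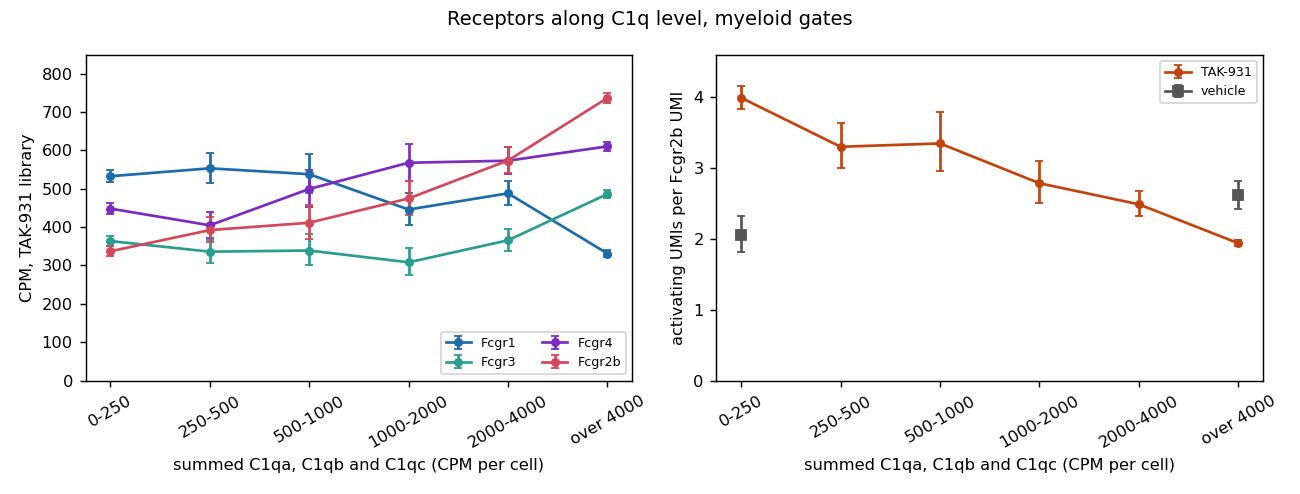
Receptor levels in the TAK-931 library (left, CPM) and the activating to inhibitory ratio in both libraries (right) by summed C1q level of myeloid cells, with 95% counting intervals. Fcgr2b climbs from 337 to 737 CPM and the ratio declines from 3.99 to 1.94 in the TAK-931 library, while the vehicle has values of 2.05 and 2.61 in the 2 end bins.

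Per cell, the shares were compared at 4000 UMIs a cell, as the expected share over all ways of drawing them. No cell of the 3 main gates was shallower than that. Among inflammatory monocytes an Fcgr2b UMI was found in 76.4% of the vehicle library's cells and 58.1% with TAK-931 (94.7% and 80.0% at full depth), and 67.3% and 81.4% had an Fcgr1 UMI (86.8% and 95.1%). Fcgr4 was seen in 48.8% and 66.2% of these cells. Cells with both an activating and an inhibitory UMI made up 72.2% (60.9 to 82.0%) of the vehicle and 56.8% (52.8 to 60.7%) of the TAK-931 cells, and cells with activating UMIs only 20.4% (11.5 to 30.5%) and 38.8% (35.0 to 42.7%).

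In C1q-high macrophages most cells carried both kinds in either library, 80.1% (72.3 to 86.8%) and 83.9% (81.6 to 85.9%), and cells with activating UMIs only made up 17.8% and 13.9%. The share with Fcgr3 was 84.3% in the vehicle and 73.1% with TAK-931, and that with Fcgr4 68.2% and 79.3%. Non-classical-marker monocytes carried both kinds in 64.9% (vehicle, 11 cells) and 53.3% (TAK-931, 162 cells), with overlapping intervals. At the same depth 2.65% of TAK-931 T cells had an Fcgr3 UMI and 2.19% an Fcgr2b UMI, with median full depths of 14109 UMIs in T cells and 12453.5 in inflammatory monocytes, so the myeloid shares lie far above background.

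**Figure D5:**
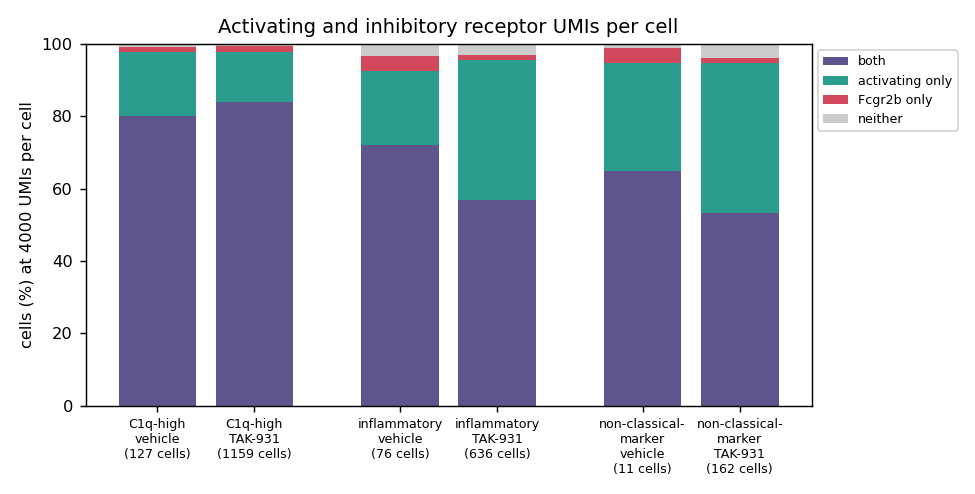
Expected shares of cells (%) with UMIs of activating receptors, of Fcgr2b, of both or of neither at 4000 UMIs a cell in the 3 main myeloid gates. Cells with activating UMIs only make up 20.4% of vehicle and 38.8% of TAK-931 inflammatory monocytes.

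NK cells, which use Fcgr3 with the Fcer1g chain for antibody-dependent killing, showed that pair most clearly above background. In 70 TAK-931 NK cells Fcer1g stood at 784 CPM (728 to 843) and Fcgr3 at 83.9 CPM (66.4 to 105), against 79.8 and 8.92 CPM in T cells. Fcgr2b (17 CPM, 16 UMIs) and Fcgr4 (12.7 CPM, 12 UMIs) were closer to the T cell levels of 8.51 and 9.98 CPM, and Fcgr1 was at 2.12 CPM (2 UMIs). In NK cells 30.9% had an Fcgr3 UMI at 4000 UMIs a cell (60.0% at full depth, median 9362 UMIs), against 2.65% of T cells (8.58%). The 8 vehicle NK cells held Fcer1g at 554 CPM and 2 Fcgr3 UMIs, too few for a comparison. The 119 TAK-931 and 26 vehicle NK barcodes with 500 to 2000 genes had Fcgr3 at 85.4 and 78.9 CPM (41 and 7 UMIs), not apart at this depth.

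UMIs of activating receptors were counted in the conventional dendritic cells of the TAK-931 library and not in the few of the vehicle library. The 14 vehicle cells (cDC1 and cDC2 together) held no UMI of Fcgr1, Fcgr3 or Fcgr4, where 3 UMIs would be 15.2 CPM, and had Fcgr2b at 45.6 CPM (9 UMIs) and Fcer1g at 603 CPM. In 76 TAK-931 cells Fcgr1 stood at 58.3 CPM, Fcgr3 at 72.9 CPM, Fcgr4 at 110 CPM, Fcgr2b at 139 CPM and Fcer1g at 987 CPM. The Fcgr2b difference lay in cDC1, at 13.8 CPM (2 UMIs) in 9 vehicle and 142 CPM in 49 TAK-931 cells, while cDC2 held 135 CPM (7 UMIs) in 5 and 131 CPM in 27 cells. Against the level of 3 UMIs summed over the gate the TAK-931 level was 3.83-fold higher for Fcgr1, 4.79-fold for Fcgr3 and 7.24-fold for Fcgr4. With the vehicle count at 0, the counting intervals of the library ratios of Fcgr1, Fcgr3 and Fcgr4 had lower limits of 3.05, 3.83 and 5.81. The 10 highest TAK-931 cells held 71.2%, 73.0% and 81.5% of these UMIs. The 6 myeloid markers summed to 1019 CPM in the vehicle and 3252 CPM in the TAK-931 cells and C1q to 10.1 and 564 CPM, with C1qa and C1qc at 0 in the vehicle, and the part of doublets in this was not tested. A rough estimate of free RNA in the TAK-931 cells, from markers of other lineages, came to 3.29 CPM of Fcgr1, 3.54 CPM of Fcgr3 and 4.54 CPM of Fcgr4, below the measured levels.

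Plasmacytoid dendritic cells gave no reading of their own. In 7 vehicle cells all 18 Fcgr3 UMIs came from 1 cell, and the gate carried C1q at 5205 CPM in the vehicle and 2987 CPM in 45 TAK-931 cells, a macrophage product. Neutrophils, small cells with few genes, mostly fell under the filter. In the barcodes with 500 to 2000 genes Fcgr4 stood at 238 CPM (12 UMIs) in 28 vehicle and 393 CPM (61 UMIs) in 55 TAK-931 neutrophils and Fcgr3 at 199 and 380 CPM (10 and 59 UMIs), with Fcgr2b at 1 and 9 UMIs. Their activating to inhibitory ratio was 22.0 (3.56 to 908) in the vehicle and 13.6 (6.91 to 30.4) with TAK-931. In TAK-931 non-classical-marker monocytes with 500 to 2000 genes it was 6.76 (4.77 to 9.82), with an overlapping interval.

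B cells were too few for a comparison, with 11 in the TAK-931 library and 0 in the vehicle. They held 16 Fcgr2b UMIs (125 CPM, 71.2 to 202) in 7 cells, no UMI of the 3 activating receptors and 3 UMIs of Fcer1g. Fcgr2b without activating receptors is the pattern known for B cells.

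Tumour cells had very low levels. In 2810 vehicle J558 cells Fcgr2b stood at 3.44 CPM (3.12 to 3.78, 428 UMIs in 316 cells, 11.2%), Fcgr4 at 1.37 CPM (171 UMIs in 134 cells, 4.77%) and Fcer1g at 1.82 CPM (226 UMIs), with Fcgr1 at 0.18 and Fcgr3 at 0.19 CPM. The T cell level, as background, was 2.71 CPM for Fcgr2b (1 UMI in 16 cells, 6.25%, median depth 16212.5 UMIs against 42306 in the tumour gate) and 0 for Fcgr4, where 3 UMIs would be 8.12 CPM, so tumour and T cells were not apart at this depth. The rough estimate of free RNA from markers of other lineages was below the measured level for Fcgr2b (1.23 CPM) and Fcgr4 (0.74 CPM) but above it for Fcer1g (6.17 CPM), Fcgr1 (0.64 CPM) and Fcgr3 (0.995 CPM), so it does not measure the free RNA in these cells. Fcgr2b and Fcgr4 were not in the proportions of the myeloid cells. Per 100 Fcer1g UMIs the vehicle tumour cells held 189 of Fcgr2b and 75.7 of Fcgr4, against 16.4 and 11.5 in vehicle myeloid cells, while Fcgr1 (9.73 against 11.0) and Fcgr3 (10.6 against 17.7) were close to or below them. Of the 316 tumour cells with Fcgr2b, 20 also had an Fcer1g UMI.

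The 93 TAK-931 tumour cells had 30 Fcgr2b UMIs (4.50 CPM, 3.04 to 6.42) and 35 Fcgr4 UMIs (5.25 CPM), and Fcer1g at 32.2 CPM. All 3 CPM lay below the T cell levels of 8.51, 9.98 and 79.8 CPM, at a median depth of 71312 UMIs in tumour and 14109 UMIs in T cells, and whether they are background was not tested. There the proportions lay near those of the myeloid cells of the library, with 14 Fcgr2b and 16.3 Fcgr4 UMIs per 100 of Fcer1g against 17.8 and 16.6. The log2 ratio of Fcgr2b between the libraries was 0.39 (-0.20 to 0.92), within counting error. Higher beyond counting error were Fcgr4 (1.93, 1.37 to 2.46), Fcgr1 (3.85, 2.85 to 4.83), Fcgr3 (4.28, 3.41 to 5.15) and Fcer1g (4.15, 3.87 to 4.43). TAK-931 Fcgr1 (2.55 CPM, 17 UMIs) and Fcgr3 (3.75 CPM, 25 UMIs) also lay below the T cell levels of 5.48 and 8.92 CPM. The activating to inhibitory ratio was 0.507 in vehicle and 2.57 in TAK-931 tumour cells (log2 2.34, 1.66 to 3.04). The summed C1q level of the tumour cells was 3.09 CPM in the vehicle and 71.2 CPM in the TAK-931 library. That of the 6 myeloid markers was 423 and 656 CPM, and the part of both in the higher Fcer1g and receptor values was not tested.

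The wider pathway was read from 4 lists of 36 genes, chosen with earlier results known. In C1q-high macrophages 2 of 28 list genes tested were over 2-fold higher and 3 over 2-fold lower (7.51% and 8.51% of all genes tested), with a median log2 ratio of -0.03 against -0.10 over all genes tested. The low end held Clec4n, the fungal receptor Dectin-2 that signals through Fcer1g (358 to 87.9 CPM, log2 -2.03, -2.15 to -1.90), Fcrls, an Fc receptor-like molecule of macrophages (102 to 26.3 CPM, -1.96), and the adaptor Dok2 (31.9 to 15 CPM, -1.09). The high end held Src (3.09 to 10.3 CPM, from 6 vehicle UMIs), Clec4e, the Mincle receptor (27.8 to 66.1 CPM, 1.25), and Clec4d (46.3 to 89.0 CPM, 0.94). Receptors that share the Fcer1g chain thus stood on both sides.

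In inflammatory monocytes 5 of 26 list genes tested were over 2-fold higher and 0 lower (12.0% and 3.74% of all genes tested), with a median of -0.03 against 0.10. The highest were Ptpn6, the phosphatase SHP-1 of inhibitory receptors (82.6 to 228 CPM, 1.47, 1.08 to 1.88), Trim21, a cytosolic antibody receptor (2 and 71 UMIs, 1.46, with an interval that spans 0), and the adaptor Lcp2 (64.6 to 138 CPM, 1.09). Clec4n was again the lowest (273 to 158 CPM, -0.79), followed by Plcg2 (91.6 to 63.7 CPM, -0.52) and Src (10.5 to 7.88 CPM, -0.41, with an interval that spans 0). In non-classical-marker monocytes 4 of 23 were higher and 0 lower, beside 19.7% and 5.72% of all genes tested (median 0.47 against 0.16), led by Lcp2 (1.78), the neonatal Fc receptor Fcgrt (1.46) and Vav1 (1.32, with an interval that spans 0), each from 7 vehicle UMIs or fewer. Its lowest were Clec4e (-0.50), Inpp5d (-0.46) and Clec4d (-0.46), and the intervals of Inpp5d and Clec4d span 0.

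Tyrobp, Syk and Inpp5d, named after their values were seen, were less than 2-fold apart in C1q-high macrophages and inflammatory monocytes. Tyrobp, another signalling chain, stood at 2417 and 2296 CPM in C1q-high macrophages and 2743 and 2434 CPM in inflammatory monocytes. The kinase Syk was at 198 and 267 CPM (log2 0.43, 0.28 to 0.58) and 224 and 272 CPM (0.28, 0.04 to 0.53). Inpp5d, which encodes the SHIP1 phosphatase used by Fcgr2b, was at 128 and 133 CPM in macrophages (0.06, -0.13 to 0.25) and 135 and 116 CPM in monocytes (-0.22, -0.54 to 0.10), not apart beyond counting error.

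Across 23 gate and library values with at least 10 cells, the genes whose level followed a member most closely (Pearson r of log2 of CPM with 10 added, over 12653 genes) were Igsf6 for Fcgr1 (r = 0.988), Clec4a1 for Fcgr4 (r = 0.984) and Tyrobp for Fcer1g (r = 0.971). For Fcgr3 it was Fcer1g itself (r = 0.969). After these came Clec4a2 and the gate marker Csf1r for Fcgr1, Clec4a2 and AB124611 for Fcgr3, Gm21188 and Pla2g7 for Fcgr4, and Fcgr3 and AB124611 for Fcer1g. The values share 2 libraries, and every member is far higher in myeloid than in other gates, so these correlations are a description.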

How the data were processed

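Single-cell RNA sequencing was done on 1 vehicle and 1 TAK-931 library of J558 allografts with a 3′ droplet kit. The deposited matrices hold whole-number UMI counts per gene and barcode, which the authors made with Cell Ranger 6.0.0. Per the labels the build is mm10, while the study's methods name a human build for the alignment, and the features are mouse genes. Whether the counts were corrected for free RNA is not given in the sources used here.

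As in the study's methods, a barcode had to hold more than 2000 genes and less than 15% of mitochondrial UMIs. Cells were gated by fixed marker genes (on at 50 CPM, or 200 CPM for tumour, myeloid, neutrophil and fibroblast lists), with C1q-high macrophages at 1000 CPM or more of summed C1q. No doublet caller was run, and cells positive for 2 lineages were set apart. Counts were summed per gate and library, and levels are CPM with exact Poisson intervals. Ratios between libraries have exact conditional binomial intervals for gates with at least 10 cells in each library. Genes with at least 50 UMIs over both sums were counted as past 2-fold or not. Intervals cover counting error only, the level of 3 UMIs is the floor for a count of 0, and no test between the groups was possible with 1 library each. Kept cells had a median depth of 40504 UMIs (vehicle) and 15097 UMIs (TAK-931), and vehicle gates of few cells limit the precision.

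The members and gene lists were chosen with earlier results of these data known. The 5 members are always named. In the pathway lists the 3 highest and 3 lowest ratios per gate are named, and for each member the 3 genes with the highest correlation, which for Fcgr2b are not reported here. C1q bins, bins by genes per barcode, low-gene barcodes, joined gates, the overlap of the monocyte rules and expected shares over all thinnings were added after seeing the data. Alternatives covered cell filters, marker and C1q limits, doublets, deep or high cells, scaling, free RNA and thinning. The steps were tested on simulated data. Python 3.11.15, numpy 2.4.6, scipy 1.17.1, pandas 2.3.3 and matplotlib 3.10.9 were used.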

Additional observations from a re-analysis of the deposited data

Results flagged for a closer look

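Some receptors went opposite ways in 2 myeloid gates under the same contrast. The log2 ratio between the libraries (TAK-931 over vehicle) for Fcgr1 was 0.94 in inflammatory monocytes and -0.91 in non-classical-marker monocytes, the latter from 11 vehicle cells. For Fcgr2b it was 0.45 in C1q-high macrophages and -0.36 in inflammatory monocytes. The log2 ratio of activating to inhibitory ratios was -0.38 in C1q-high macrophages and 0.95 in inflammatory monocytes. In the C1q-high barcodes that the gene filter left out, Fcgr2b and the activating to inhibitory ratio each had the opposite order between the libraries. With 1 library in each group, whether these differences exceed the spread between animals was not tested.

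Receptor signal also appeared in neutrophil barcodes that the gene filter left out. Fcgr4 stood at 238 CPM and Fcgr3 at 199 CPM in the vehicle, above the 59.6 CPM that 3 UMIs would give. In the TAK-931 library they stood at 393 and 380 CPM, above a level of 19.3 CPM.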

How the results depend on the processing

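No paired analysis was possible because each group has 1 library, and for the same reason no replicate could be left out. Of the alternative values for the main ratios, 125 moved by less than counting error and 11 by more. All 46 alternatives for the activating to inhibitory ratio stayed within counting error, from -0.43 to -0.32 (log2 ratio of ratios) in C1q-high macrophages and from 0.88 to 1.01 in inflammatory monocytes. A lower gene filter adds shallow barcodes to the deeper ones, whereas the low-gene barcodes alone had the opposite order in C1q-high macrophages. Leaving out the 10 highest cells, a larger share of the smaller vehicle gates, gave log2 ratios in C1q-high macrophages of 0.16 for Fcgr1, 0.95 for Fcgr4 and 0.56 for Fcgr2b, and in inflammatory monocytes of 1.29, 1.56 and -0.041. In C1q-high macrophages, scaling by the median ratio gave 0.21, 0.76 and 0.63 for these genes, and Fcgr4 was 0.43 without the 5% deepest cells and 0.37 as a mean of cell CPM. Fcgr3 in inflammatory monocytes ranged from -0.19 to 0.15. Of the other alternative values 282 moved by less than counting error and 41 by more, and list genes over 2-fold higher in non-classical-marker monocytes numbered 2 in place of 4 at 200 UMIs or more. Non-classical-marker monocytes had under 10 vehicle cells, and so no value, under the stricter mitochondrial limit and with doubled marker limits. Where a value moved, the cause was not tested.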
